A study of Drosophila melanogaster with 20 samples.

Results

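The comparison was between whole *Drosophila melanogaster* embryos that lacked every isoform of the coactivator subunit Ada2b and *elav-Gal4>GFP* embryos that carried neither *Ada2b* allele, and it asked which transcripts depended on *Ada2b* as a whole. It used 8 of the 20 RNA-seq libraries of the series, 4 labelled *ada2b* null and 4 labelled WT (elav-gal4 x GFP). They were chosen by those genotype labels and by library depth, and not by the level of any gene. The other 12 libraries came from embryos in which 1 or both of the isoforms Ada2b-PA and Ada2b-PB had been put back. The plan described the PA and PB libraries as shallower and more variable, so the main fit left them out. Null embryos carried the null alleles Ada2b1 and Ada2b842 in trans, one on a chromosome with *elav-Gal4* and the other on a chromosome with a *UAS-GFP* reporter. Both groups thus shared the *elav-Gal4* driver, which is active in neurons, and the GFP reporter. GFP-positive embryos were picked by hand under fluorescence at stage 12 to 14 (12 to 15 in the label of WT replicate 3), and each library came from a small pool of embryos, so a value is a mean over embryos and over all their cell types.

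Ada2b is an adaptor of the histone acetyltransferase Gcn5. Through the PB isoform it joins SAGA, a large coactivator with acetyltransferase and histone H2B deubiquitinase modules, and the smaller ADA complex, while the PA isoform joins Chiffon in the CHAT complex. A related adaptor, Ada2a, brings Gcn5 into ATAC. Gcn5 acetylates histone H3 at promoters. A fly embryo starts with RNA loaded by the mother, which is cleared as its own genome is switched on, and by the stages sampled here neuroblasts are dividing, muscles are forming and the epidermis has not yet laid down its full cuticle.

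Null libraries held 17874297 to 29013029 counts on genes and WT libraries 27944272 to 35678749. A share of 14.7 to 24.5% of aligned and unaligned reads was counted on a gene in the null against 19.6 to 32.2% in WT (exact permutation test, 2-sided, p = 0.0571, adjusted p = 0.143 over 5 values per library, with 0.0286 the smallest p that 4 against 4 allows). Levels are given as CPM, a gene's count scaled by its library's total after TMM adjustment. Across genes, log2 CPM correlated at 0.905 to 0.946 between null libraries and at 0.909 to 0.959 between WT replicates 2, 3 and 4, but at only 0.762 to 0.797 between WT replicate 1 and the other WT libraries. WT replicate 1 stood apart in a set of genes of late embryos. Its summed CPM of the 120 Cpr and Twdl cuticle genes was 18890, against 173, 42.4 and 21.6 in the other WT libraries and 769 to 2922 in the null, and its 4 muscle markers (*Mef2*, *Mhc*, *Act57B*, *Mlp84B*) summed to 11060 against 922 to 1223 and 3454 to 4783. Its 4 neuroblast markers (*dpn*, *ase*, *wor*, *mira*) summed to 45.1, against 199 to 342 in the other WT and 502 to 701 in the null. Many values rest on this library, and those that moved most are also given without it. The defining markers of neurons, neuroblasts, glia, muscle, hemocytes, germ cells, epidermis, midgut, trachea, salivary gland, amnioserosa and fat body were detected in both groups, and 6 genes of adult ovary summed to between 2.28 and 17.9 CPM in the 8 libraries.

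**Figure D1:**
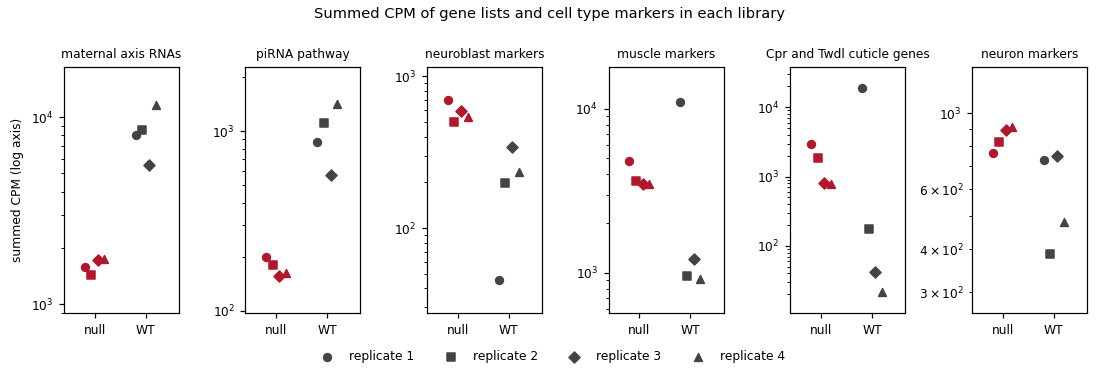
Summed CPM (log axis) of 6 sets of genes in each library, null in red and WT in dark grey, with 1 symbol for each replicate number. Maternal axis and piRNA genes lie lower in all 4 null libraries than in any WT library, while WT replicate 1 (circles) lies apart from the other WT libraries for neuroblast markers, muscle markers and cuticle genes, the last at 18890 CPM against 173 or less.

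*Ada2b* itself was measured first as a check of the labels. The gene (FBgn0037555, 3R:8236632-8240515 on the minus strand of the dm6 assembly) had 42.9, 45.2, 31.1 and 27.4 CPM in null replicates 1 to 4 and 167, 118, 106 and 184 CPM in WT replicates 1 to 4. All null libraries lay below all WT libraries. The fold change was 4.18-fold lower (log2 -2.06, SE 0.29, edgeR adjusted p = 0.000515), and counts assigned to *Ada2b* remained in every null library. *PolI* overlaps *Ada2b* on the other strand, and counts that belong to one or the other could not be told apart.

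Across the genome, loss of *Ada2b* went with many changes in both directions. Of 10862 genes tested, 2049 fell (18.9%) and 1930 rose (17.8%) at an edgeR adjusted p under 0.05 and a change of at least 0.5 on the log2 scale, and 6883 were not called. The lower genes had a median log2 fold change of -1.44 and the higher genes one of 1.58, beside a median of 0.33 over all genes tested, so that medians of gene lists are read against 0.33 and not against 0. With the median gene centred at 0, 2682 genes were lower and 1197 higher. The 4 null CPM all lay below the 4 WT CPM for 1890 of the lower genes (92.2%), and all above them for 1260 of the higher genes (65.3%). Over all genes tested, 21% lay below and 17.2% above without overlap.

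Lower calls held more often than higher calls when single libraries were left out. In the 8 fits that each left out 1 library, 1331 of the lower genes (65% of them, 12.3% of genes tested) were lower every time, and 747 of the higher genes (38.7% of them, 6.88% of genes tested) were higher every time. Spread was larger among the WT libraries, with a median SD of log2 CPM of 0.64 in WT against 0.36 in the null. Without WT replicate 1, 2486 genes were lower (22.2% of 11215) and 3368 higher (30%), and 1273 of the 1930 higher genes were among the latter. With no factor for unwanted variation, the model term that takes up deviations shared among replicates, 2086 were lower (19.2%) and 978 higher (9%). The factor was not balanced between groups. It was -0.273 to -0.108 in the null, -0.656 in WT replicate 1 and 0.402 to 0.602 in the other WT libraries. Log2 fold changes from the fit therefore need not equal the log2 ratio of mean CPM. Without the factor, *Obp99a* had a log2 fold change of 1.98 and not 3.79, and *bcd* one of -5.56 and not -5.51. Of genes named and called, 66 of 69 lower and 29 of 56 higher kept their call without it. When all 20 libraries entered one fit, 495 genes were lower (4.54%) and 5 higher (0.0459%). Without null replicates 1 to 4 in turn, 1596, 1536, 1427 and 1648 genes were lower, of 11129, 11135, 11131 and 11139 tested. In the same order 1233, 1220, 1020 and 1346 were higher. With WT replicate 2, 3 or 4 left out, lower genes numbered 2092, 2112 and 1947 and higher genes 2302, 2938 and 1744. Genes tested in those fits were 11308, 11290 and 11366. With the median gene centred at 0, 24.7% were lower and 11% higher. These values are the backgrounds for the counts of list members given below in these settings.

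Genes that fell and genes that rose differed in level, and the level in each group also enters the call. In WT the median was 138 CPM for genes that fell, 16.7 CPM for genes that rose and 19.4 CPM for all genes tested, and in the null it was 43.6, 37.0 and 20.6 CPM. Per kb of exon in protein-coding genes the order turned between groups, at 54.8 CPM for genes that fell against 9.14 CPM for genes that rose in WT, and 16.9 against 19.8 CPM in the null. With genes ordered by mean level into 4 bins of equal size, in the highest bin 42.1% fell and 14.7% rose, while in the lowest bin 1.1% fell and 7.62% rose, a bin in which few counts leave little room for a call. Protein-coding genes made up 99% of the lower, 92.8% of the higher and 92.9% of all annotated genes tested. A single exon was found in 7.38% of the protein-coding genes that fell, 13.9% of those that rose and 10.9% of all. Calls were spread over the genome, at 16.9 to 21.3% lower and 12.8 to 18.7% higher on the chromosome arms, with the X at 21.3% lower and 16.9% higher.

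**Figure D2:**
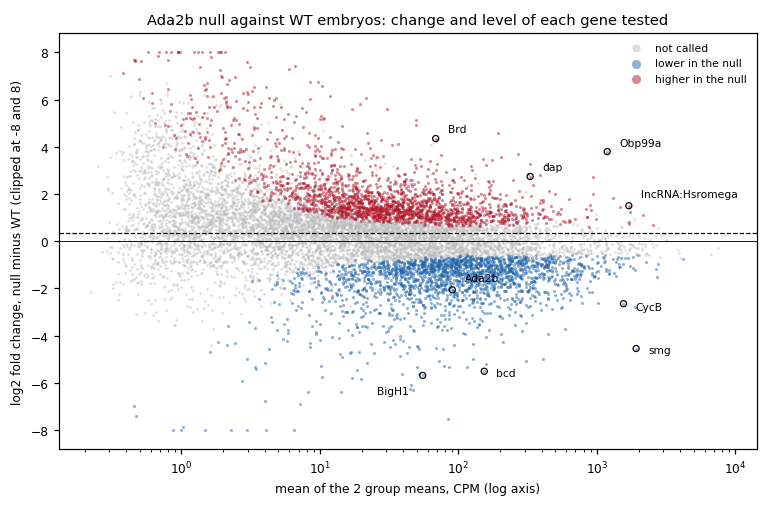
Log2 fold change of null minus WT (clipped at -8 and 8) against the mean of the group means in CPM (log axis) for each of the 10862 genes tested, with the 2049 lower genes in blue, the 1930 higher genes in red and the others in grey. The dashed line is the median of all genes, 0.33, and by the mean of both groups the blue points reach further to the right than the red ones.

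Partners of Ada2b in its complexes were also lower. Of the 4 genes of the acetyltransferase module and CHAT, 3 fell and none rose (18.9% and 17.8% of all genes), and the same count was found without WT replicate 1. Their summed level was 328 to 415 CPM in the null against 725 to 1540 CPM in WT. *Ada3*, an adaptor that binds Ada2b, had 38.3, 41.9, 45.6 and 47.4 CPM in the null and 120, 138, 80.5 and 157 CPM in WT. Every null library was below every WT library (log2 -1.46, SE 0.26, edgeR adjusted p = 0.00191). *Ada3* overlaps *CG7536* on the other strand. *Gcn5*, the catalytic subunit, had 61.7, 39.6, 51.2 and 61.3 CPM in the null and 111, 96.9, 93.4 and 187 CPM in WT, again without overlap, with a log2 fold change of -1.07 (SE 0.29, edgeR adjusted p = 0.0154). This call was lost without null replicate 2 or null replicate 3, and *ver* overlaps *Gcn5* on the other strand. *chif*, which encodes Chiffon and shares exon sequence with *Hyls1*, had 279, 224, 309 and 287 CPM against 557, 609, 539 and 1164 (log2 -1.15, edgeR adjusted p = 0.00695). *Sgf29*, the reader of methylated histone H3 in this module, was not called, at 9.19 to 22 CPM against 12.1 to 35.3.

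In the rest of SAGA, 5 of 13 genes of the core and TAF module fell and 1 rose, or 7 and 1 without WT replicate 1. The 7 not called with all libraries reached a log2 fold change of 2.92. *Spt20*, a scaffold subunit, had 81.6, 82.5, 115 and 134 CPM in the null and 472, 348, 352 and 733 CPM in WT. The groups did not overlap, and this was the largest fall among called SAGA genes (log2 -2.12, SE 0.31, edgeR adjusted p = 0.000631). *Spt7* (log2 -2.11), *Taf12* (-1.52), *Ada1-2* (-1.35) and *Spt3* (-1.26) fell as well, all structural subunits of the core. *wda*, a subunit with WD repeats, was the member that rose, from 5.53 to 10.5 CPM in WT to 14.6 to 19.9 CPM in the null (log2 1.35, edgeR adjusted p = 0.0237), and *Spt3*, *Ada1-2* and *wda* lost their calls when some single library was left out. Of 4 genes of the deubiquitinase module 3 fell. *not*, which encodes the ubiquitin protease Nonstop, had 34.5, 48.0, 36.0 and 28.5 CPM in the null and 103, 153, 87.1 and 188 CPM in WT, a separation of the groups with a log2 fold change of -1.66 (SE 0.30, edgeR adjusted p = 0.00196). Its partners *Sgf11* (-1.58, not called without null replicate 3) and *Atxn7* (-1.22) fell too. Of the neighbours on the other strand, *CG32554* lies opposite *Spt7*, *CG18789* opposite *Ada1-2*, *EloA* opposite *wda* and a tRNA gene opposite *not*.

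The 10 genes of ATAC divided, with 2 lower and 5 higher. *Chrac-14*, a small histone-fold protein that ATAC shares with a nucleosome remodeller, had 25.1, 25.1, 26.8 and 23.2 CPM in the null and 170, 213, 85.7 and 248 CPM in WT. All 4 null values lay far below the WT values (log2 -2.77, SE 0.33, edgeR adjusted p = 0.000277). *wds*, a WD-repeat protein found in several histone-modifying complexes, fell by 0.97 on the log2 scale but was not called without null replicate 3. *Atac2*, the second acetyltransferase of ATAC, had 18.6 to 26.7 CPM in the null and 3.70, 10.4, 18.6 and 11.7 CPM in WT (log2 1.80, or 0.75 and not called without WT replicate 1), and *D12*, *NC2beta*, *Atac3* and *MBD-R2* rose by 1.60, 1.44, 1.38 and 1.15 on the log2 scale. The higher calls depended on WT replicate 1, which was the lowest library for each of these 5 genes. Without it 2 of the 10 ATAC genes were higher, and with no factor none was. *Ada2a*, the paralogue of *Ada2b* that takes its place in ATAC, had 11.6, 9.32, 11 and 7.97 CPM in the null and 3.22, 6.67, 9.60 and 10.3 CPM in WT. The groups overlapped and the gene was not called (log2 1.02, SE 0.43, edgeR adjusted p = 0.0817, and 0.16 without WT replicate 1). It shares exon sequence with *Polr2D*. *NC2beta* is overlapped by *THG* on the other strand.

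Genes of other histone acetyltransferases were lower as well, 5 of 7 lower and 1 higher, and the same 5 were lower in each of the 8 fits with 1 library left out. *nej*, the fly CBP, which acetylates histone H3 at enhancers, had 728, 577, 791 and 739 CPM in the null and 2087, 1404, 1557 and 3051 CPM in WT. No null library reached the lowest WT library (log2 -1.47, SE 0.28, edgeR adjusted p = 0.00257). *Hat1* (log2 -2.12), which acetylates new histone H4, *Tip60* (-1.75), the acetyltransferase of a remodelling complex, and *mof* (-1.39), which acetylates histone H4 on the male X, also fell, and *Elp3*, of Elongator, rose by 0.86 but was not called without WT replicate 1 (0.37). Among 9 deacetylase genes tested 2 fell and 2 rose, *Sirt7* falling by 1.92 and *HDAC1*, the main class I enzyme, by 1.07 on the log2 scale, the latter not called without null replicate 3. *kat-60L1* lies opposite *Hat1*, *dgt4* and *tyf* opposite *Tip60*, *MFS18* opposite *Elp3*, and a long non-coding RNA gene opposite *HDAC1*.

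**Figure D3:**
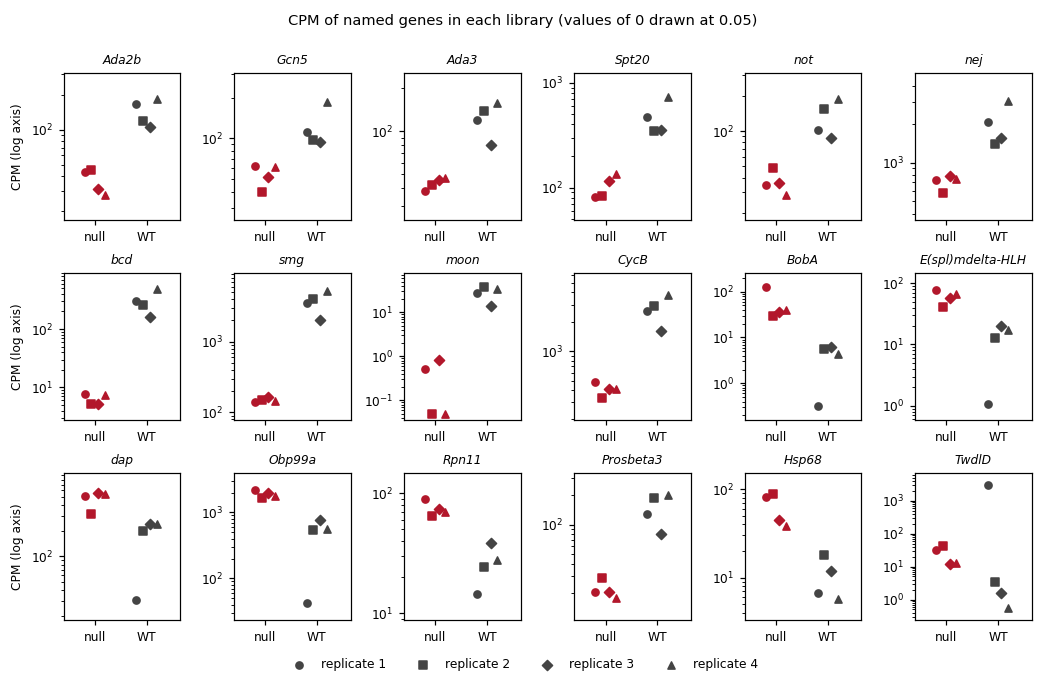
CPM (log axis) of 18 named genes in each library, null in red and WT in dark grey, with 1 symbol for each replicate number and values of 0 drawn at 0.05. The 4 null points lie below all WT points for *Ada2b*, *Gcn5*, *Ada3*, *Spt20*, *not*, *nej*, *bcd*, *smg*, *moon*, *CycB* and *Prosbeta3* and above them for *BobA*, *E(spl)mdelta-HLH*, *dap*, *Obp99a*, *Rpn11* and *Hsp68*, while *TwdlD* overlaps because of WT replicate 1.

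RNAs that mothers load into the egg were lower. Of 25 genes of the maternal axis list 14 fell and none rose, with a median log2 fold change of -1.75, and 12 of the 14 fell in every fit with 1 library left out. Without WT replicate 1, 13 fell and 1 rose. Their summed level was 1422 to 1748 CPM in the null and 5580 to 11670 CPM in WT. In bulk RNA, fewer cells of a type and less RNA per cell cannot be told apart, here or in any later list. The labels do not give the age or make-up of each pool within its stages. Their part cannot be told apart from that of genotype, here or below. The muscle gene *Mhc* had 1139 to 2401 CPM in the null, 4975 in WT replicate 1 and 15.8 to 236 in the other WT libraries. On a scale over all 20 libraries, *bcd* ran from 34.2 to 241 CPM in embryos with both isoforms put back. *bcd*, the anterior determinant (FBgn0000166, 3R:6755842-6759466, minus strand), had 7.66, 5.24, 5.20 and 7.31 CPM in the null and 306, 256, 161 and 480 CPM in WT. The null values were close to one another and none came within a factor of 10 of the lowest WT value. The fold change was 45.7-fold lower (log2 -5.51, SE 0.39, edgeR adjusted p = 3e-05). *smg*, which encodes Smaug, the RNA-binding protein that directs clearance of maternal mRNA, had 140, 149, 164 and 145 CPM in the null and 3516, 4040, 2012 and 5186 CPM in WT. It was abundant in WT, low in each null library, and the groups did not overlap (log2 -4.55, SE 0.31, edgeR adjusted p = 3e-05). *swa*, needed to localize *bcd* RNA (log2 -5.34), *plu*, of the kinase that starts the syncytial cycles (-5.80), *snk*, a protease of the dorsal pathway (-5.94) and *osk*, the organizer of germ plasm (-5.30), fell by similar amounts. Some of these RNAs were low in the null, *snk* at 0 to 0.284 CPM and *plu* at 0 to 1.01 CPM, and *CG11668* lies opposite *snk* and an antisense RNA gene opposite *osk*.

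Among other genes with large falls, *BigH1*, the embryonic linker histone, had 2.88, 1.52, 2.07 and 1.49 CPM in the null and 100, 119, 58.7 and 156 CPM in WT, without overlap (log2 -5.69, SE 0.41, edgeR adjusted p = 3e-05). *twe*, the Cdc25 phosphatase of meiosis, fell by 5.33 on the log2 scale, *Elba2*, an insulator protein of early embryos, by 5.28, and *Marf1*, an RNA-binding protein of the oocyte, by 5.10. The uncharacterized genes *CG5568* and *CG4404* fell by 5.62 and 5.45. *slam*, which is needed for the first cell membranes, had a log2 fold change of -4.98, and *zld*, which encodes the pioneer factor Zelda that opens the zygotic genome, had 1018, 518, 725 and 752 CPM in the null and 2004, 2020, 1082 and 2534 CPM in WT. The *zld* groups were separated by little, null replicate 1 lying just below WT replicate 3 (log2 -1.34, edgeR adjusted p = 0.00741). *EndoGI* lies opposite *twe*, a transposable element copy overlaps *Marf1*, and *CG18586* shares sequence with *CG5568*.

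Of 9 lower genes with no count in any null library, the pair with the highest WT level was *CG11263* and *lncRNA:CR45036*. *CG11263* had 0 CPM in the 4 null libraries and 4.02, 19.6, 5.55 and 22.9 CPM in WT, at least 408-fold lower when the null is set at 3 counts over its 4 libraries. *lncRNA:CR45036*, which lies opposite *CG6163*, had 6.03, 7.36, 3.75 and 6.78 CPM in WT and none in the null, at least 201-fold lower by the same floor. Neither has a role that is given here.

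Genes of the piRNA pathway, which silences transposons in the germ line, fell as a group, 15 of 21 lower and none higher, with a median log2 fold change of -2.29 and with 16 of 21 lower in every null library than in any WT library. In all 8 fits with 1 library left out 13 of the 15 were lower, and without WT replicate 1 alone 17 of the 21 were. *moon*, which brings the transcription machinery to piRNA source loci, had 0.527, 0, 0.818 and 0 CPM in the null and 27.2, 37.1, 13.8 and 34.4 CPM in WT. It was near absent from all null libraries (log2 -6.40, SE 1.01, edgeR adjusted p = 0.000987), and it lies within *Ten-a* and a non-coding RNA gene. *tej*, a component of the germline granule in which piRNAs are made (log2 -4.01), and *piwi*, the founding member of the pathway (-3.97, with *SCAR* opposite), fell, and 6 members were not called. The 3 germ cell markers *vas*, *nos* and *pgc* summed to 5.94 to 10.3 CPM in the null and 19 to 31.2 CPM in WT, and 5 of the 13 genes of the germ cell list fell, *bam* by 4.68 on the log2 scale. The other 8 were not called, and 4 of the 13 had positive log2 fold changes, up to 2.37. The whole list summed to 524 to 607 CPM in the null and 575 to 860 CPM in WT, so the groups overlapped. *bam*, which drives germ cells out of the stem cell state, had 1.58, 1.34, 0.577 and 2.12 CPM against 40.1, 26.6, 20.8 and 59.6, with *CG11854* on the other strand. The part of germ cell number in the fall of the piRNA genes was not tested.

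**Figure D4:**
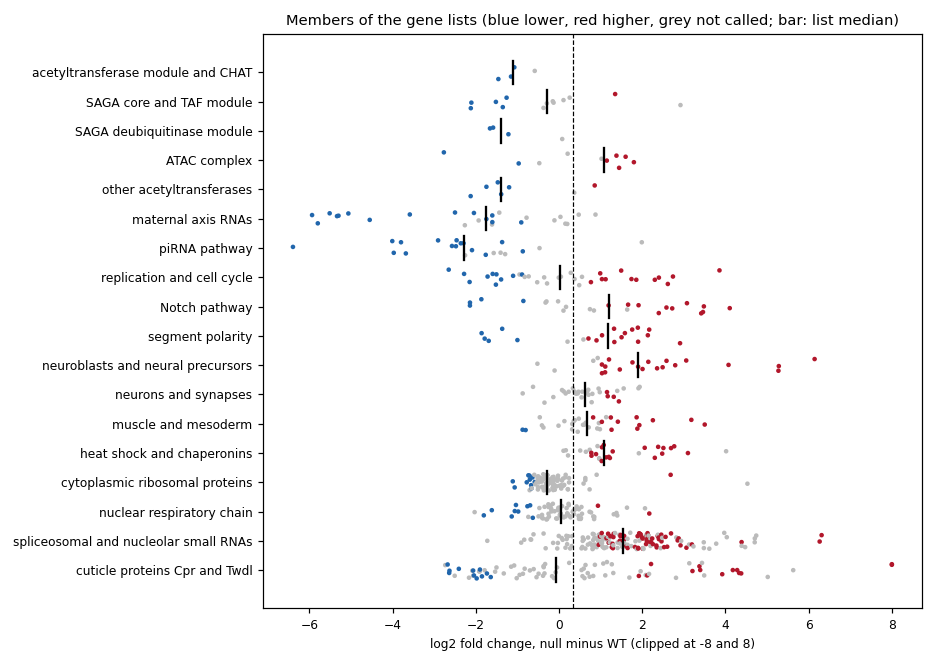
Log2 fold change of null minus WT (clipped at -8 and 8) for each tested member of 18 gene lists, blue for lower, red for higher and grey for not called, with a bar at each list's median and a dashed line at the median of all genes, 0.33. The piRNA and maternal axis lists lie furthest to the left, with medians of -2.29 and -1.75, and the neuroblast list furthest to the right, with a median of 1.90.

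Cell cycle and replication genes moved in both directions, with 10 of 34 lower and 12 higher, or 15 and 7 without WT replicate 1. *CycB*, the mitotic cyclin, had 488, 334, 410 and 406 CPM in the null and 2559, 2898, 1620 and 3723 CPM in WT. The lowest WT library was well above the highest null library (log2 -2.65, SE 0.28, edgeR adjusted p = 0.000172). *CycD*, the cyclin of growth in G1 (log2 -2.28), and *dup*, the Cdt1 licensing factor (-2.15, with *SRPK* opposite), also fell, and 9 of the 10 lower calls held in every fit with 1 library left out. On the other side, *dap*, the inhibitor of cyclin E and Cdk2 that ends division, had 510, 319, 556 and 539 CPM in the null and 31.0, 197, 240 and 242 CPM in WT. The groups did not overlap (log2 2.74, SE 0.29, edgeR adjusted p = 0.000168), but WT replicate 1 was far below the rest, and the log2 fold change was 1.07 without it. Genes of the origin recognition complex and the MCM helicase, which load at replication origins, were set side by side after their values were seen, and 7 of 11 were higher and 2 lower. *Orc2* had 19.9, 19.4, 12.7 and 22.1 CPM in the null and 0.319, 3.66, 11 and 9.20 CPM in WT, and *Orc5* 15.8 to 22.1 CPM against 1.56 to 6.90. Their log2 fold changes of 3.86 and 2.62 became 1.28 and 1.45 without WT replicate 1, and 4 of the 11 were then higher and 3 lower. None of the 11 was called in the fit with all 20 libraries. *rdx* lies opposite *Orc2*, and *PolG2* and *GatC* opposite *Orc5*.

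The proteasome divided by its parts. Of 35 subunit genes tested 12 fell and 15 rose, and 11 of each were called in all 8 fits with 1 library left out. When the list was separated, after its values were seen, into the catalytic core and the regulatory cap that recognizes and unfolds ubiquitinated proteins, the core had 11 of 14 genes lower and none higher, and the cap 15 of 18 higher and 1 lower. The core genes together summed to 652 to 783 CPM in the null and 1414 to 2805 CPM in WT, and the cap genes to 1566 to 1830 CPM in the null and 766 to 1295 CPM in WT. *Prosbeta3*, of the core, had 20.6, 28.8, 20.4 and 18 CPM in the null and 130, 186, 80.4 and 201 CPM in WT (log2 -2.66, SE 0.33, edgeR adjusted p = 0.000334). *Rpn11*, the deubiquitinase of the cap, had 90.0, 64.7, 73.5 and 69.996 CPM in the null and 14.5, 24.1, 38.4 and 28.0 CPM in WT (log2 1.89, SE 0.32, edgeR adjusted p = 0.00143). Neither gene's groups overlapped, and the directions were opposite. *Prosalpha5* (log2 -2.49) and *Prosbeta7* (-2.14) followed the core, and *Rpt6* (1.80, or 1.19 without WT replicate 1) and *Rpn3* (1.71, or 1.02) the cap. The exceptions were *Rpt4*, a cap ATPase that fell by 1.83 (with *wuho* opposite), *Prosalpha1*, *Prosalpha2* and *Prosbeta2* of the core and *Rpn6* and *Rpn12* of the cap, which were not called. Without WT replicate 1, 13 of 14 core genes were lower and 11 of 18 cap genes higher, and with the median gene centred at 0 the counts were the same. In the fit with all 20 libraries 2 core genes were lower and no cap gene higher. *CG11980* lies opposite *Prosbeta3* and *CG1801* opposite *Rpt6*.

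**Figure D5:**
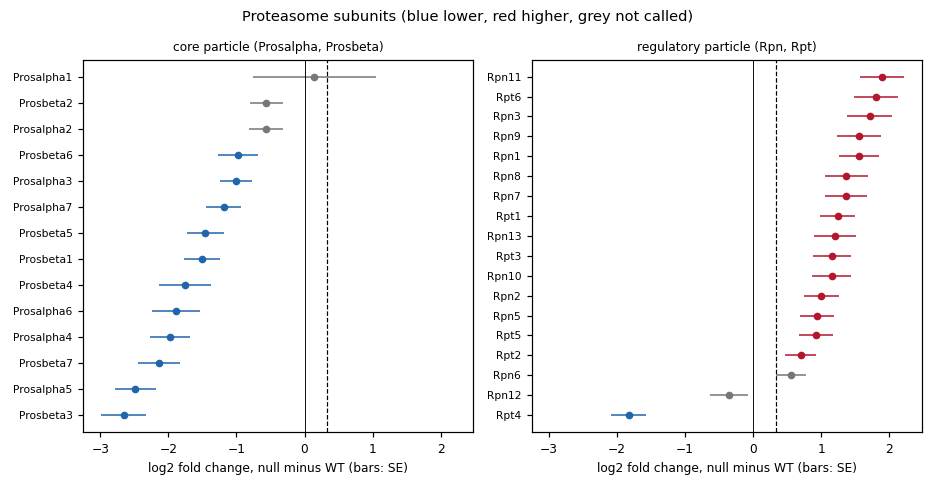
Log2 fold change of null minus WT for each proteasome subunit gene, core particle on the left and regulatory particle on the right, with bars of 1 SE, blue for lower, red for higher and grey for not called. The dashed line is the median of all genes, 0.33, with 11 of 14 core genes called to its left and 15 of 18 regulatory genes called to its right.

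Chaperone genes were higher. Of 29 heat shock and chaperonin genes 18 rose and none fell, with a median log2 fold change of 1.08, and their sum was 7007 to 7631 CPM in the null against 4017 to 6479 CPM in WT. *Hsp68*, an inducible Hsp70 protein, had 81.2, 88.5, 44.6 and 38.7 CPM in the null and 6.64, 18, 11.9 and 5.71 CPM in WT. Every null library was more than 2 times the highest WT library (log2 2.77, SE 0.60, edgeR adjusted p = 0.00486). Copies of *Hsp70* had log2 fold changes of 2.30 (*Hsp70Aa*) to 3.10 (*Hsp70Bc*), given here without their calls. These genes are near identical and reads could be split or lost between them. All 8 genes of the cytosolic chaperonin CCT, which folds actin and tubulin, were higher, by 0.78 to 1.29, with *CCT2* at 241 to 274 CPM in the null and 126 to 211 CPM in WT. This count was unsteady, since 2 to 8 of the CCT genes were higher when single libraries were left out, with 2 without null replicate 3 and 3 without null replicate 2, 2 were higher in all 8 such fits, and 3 were with the median gene centred at 0. No CCT gene was higher with all 20 libraries, or with the libraries of both isoforms put back added to the fit. *Hsp83*, the fly Hsp90, had 525, 536, 440 and 388 CPM against 201, 234, 265 and 139, also without overlap (log2 1.13). The other 11 genes were not called. When WT replicate 1 was left out, 16 of 29 were higher, among them 5 of the 8 CCT genes, and 11 were higher without null replicate 1, 2 or 3, while 9 of the 18 held in all 8 fits. *lncRNA:Hsromega*, a nuclear RNA induced by heat, had 2827, 2060, 2439 and 2694 CPM in the null and 843, 843, 1180 and 714 CPM in WT, with no overlap (2.83-fold higher, SE of the log2 value 0.26, edgeR adjusted p = 0.00164). *CG6000* lies opposite *Hsp68* and *CG14966* opposite *Hsp83*, and small RNA genes lie within *lncRNA:Hsromega*.

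Among genes of Notch signalling, targets were mostly higher and 4 genes that act with the receptor were lower. Of 23 Notch pathway genes 11 rose and 4 fell, or 9 and 6 without WT replicate 1. *Su(H)*, the DNA-binding protein through which Notch acts, had 36.2, 29.1, 38.3 and 38.1 CPM in the null and 146, 171, 120 and 274 CPM in WT, with no overlap (log2 -2.14, SE 0.28, edgeR adjusted p = 0.000375). *H*, its corepressor Hairless (log2 -2.14), *Nct*, of the gamma-secretase that cuts Notch (-1.87, with *HDAC11* opposite), and *kuz*, the protease that cuts Notch first, fell, *kuz* losing its call without null replicate 1, 2 or 3. *E(spl)mdelta-HLH*, a repressor switched on by Notch, had 78.5, 40.9, 57.1 and 67.3 CPM in the null and 1.09, 12.8, 20.3 and 17.1 CPM in WT. Each null library exceeded each WT library, with WT replicate 1 the lowest (log2 4.10, SE 0.49, edgeR adjusted p = 0.000277, and log2 1.85 without that library).

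The E(spl) and Bearded families, small genes induced by Notch or restraining it, were gathered after their values were seen. Of 15 members 14 were higher, with a median log2 fold change of 3.25, and for 13 the groups did not overlap. *BobA* had 125, 28.7, 35.6 and 39.8 CPM in the null and 0.319, 5.49, 6.30 and 4.41 CPM in WT, and *Brd* 240, 40.1, 87.8 and 122 against 2.62, 12.6, 22.1 and 20.6. Null replicate 1 was the highest and WT replicate 1 the lowest library for both. *BobA* had a log2 fold change of 5.58 (SE 0.98, edgeR adjusted p = 0.0017), or 3.39 without WT replicate 1, and *Brd* one of 4.35 (SE 0.75, edgeR adjusted p = 0.00155), or 2.75. Without WT replicate 1, 12 of the 15 were higher, with a median of 1.48, and with no factor 8 were. With a term for replicate number in place of the factor 4 were higher, beside 775 of 10862 genes. None was higher with the libraries of both isoforms put back added to the fit, or with all 20 libraries. Over all genes, 158 of 11011 and 5 of 10904 were higher in those fits.

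Among other genes that rose, *Obp99a*, which encodes a secreted odorant-binding protein, had 2182, 1644, 1968 and 1776 CPM in the null and 42.8, 540, 771 and 568 CPM in WT. It separated the groups (log2 3.79, SE 0.41, edgeR adjusted p = 0.000184), with a log2 fold change of 1.58 without WT replicate 1. *CG10035* had 95.5, 27.1, 15.7 and 13.5 CPM in the null and 0.415, 0.814, 1.20 and 0.650 CPM in WT, so that the difference did not rest on WT replicate 1 (log2 5.82, and 5.38 without it). The uncharacterized genes *CG12496* and *CG4440* rose by 5.13 and 4.59, or by 2.68 and 2.55 without WT replicate 1, and *Cpr67B*, a cuticle protein gene, rose by 4.28. *CG11911* and *CG11529* had 8.23 to 23.0 and 5.79 to 21.2 CPM in the null, against 1.69 and 0.607 CPM in WT replicate 1 and 0 in the other WT libraries. Of 18 higher genes with no count in any WT library, *CG6996* had 6.57, 3.73, 2.41 and 2.39 CPM in the null, at least 129-fold higher than a WT level of 3 counts over 4 libraries, and *Cpr11B*, a cuticle gene within *hwt*, 6.36, 6.85, 1.64 and 0.597 CPM, at least 125-fold higher. *Bacc*, a gene within the span of *Pgk*, was among the most abundant that rose, with 3427, 2378, 2490 and 2832 CPM in the null and 1047, 1654, 1686 and 1693 CPM in WT (log2 1.11, edgeR adjusted p = 0.00385, and 0.72 without WT replicate 1). *Bacc* was also one of the 5 genes called higher when all 20 libraries entered the fit. The abundant genes *fax* and *HmgD*, the latter within the span of *HmgZ*, rose by 0.69 and 1.25, but their groups overlapped and neither was called without WT replicate 1. An antisense RNA gene lies opposite *CG6996*, and *Plc21C* contains *CG11911*.

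Small nuclear and nucleolar RNAs, which guide splicing and the modification of ribosomal RNA, moved only upward among called genes, with 62 of 165 higher and none lower, and for 66 of them all null libraries lay above all WT libraries. Their share of the counts on genes was 0.917 to 1.5% in the null and 0.432 to 0.708% in WT (exact permutation test, 2-sided, p = 0.0286, the smallest possible, adjusted p = 0.143). This share was taken before TMM scaling. In TMM-scaled CPM, the 309 listed genes summed to 11680 to 22120 in the null and 9074 to 15270 in WT, so the groups overlapped. *snoRNA:Psi28S-3305b*, which lies in *Hrb98DE*, had 5.75, 7.41, 3.37 and 4.09 CPM in the null and 0, 0.610, 0.525 and 0.372 CPM in WT. Its level was low in both groups, but without overlap (log2 6.26, SE 1.40, edgeR adjusted p = 0.00586, and log2 3.37 without WT replicate 1, which had no count). With WT replicate 1 left out, 83 of 182 were higher and 2 lower. Most of these RNAs lie inside introns of other genes and are shorter than usual library fragments, and the null libraries also had the lower share of reads on genes, whose part in this difference was not tested.

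Few cytoplasmic ribosomal protein and respiratory chain genes were called in the fit of 8 libraries, and the ribosomal count changed with the setting. Of 88 cytoplasmic ribosomal protein genes 10 fell and 1 rose, with log2 fold changes of -1.11 for *RpL29*, -1.07 for *RpS3A* and -0.78 for *RpL27*, and 28 fell and 2 rose without WT replicate 1. Only 3, 2, 1 and 2 fell without null replicates 1 to 4 in turn, 32 fell with the median gene centred at 0, and 1 of the 10, *RpS3A*, was lower in all 8 fits with 1 library left out. The median of the list was -0.28, and for 22 of the 88 genes all null libraries lay below all WT libraries. Nuclear genes of the respiratory chain had 9 of 77 lower and 2 higher, or 8 and 19 of 80 without WT replicate 1, and 4 of the 9 lower calls held in all 8 fits, including *ATPsyndelta* (log2 -1.81) and *ATPsynCF6* (-1.62) of the ATP synthase, and none of the 17 mitochondrially encoded genes tested was called, 3 of them lying lower in all null libraries. Of the most abundant lower genes, *eEF2*, the ribosome translocase, fell by 0.77, and *betaTub56D*, the main beta-tubulin, fell by 1.53, from 2540 to 5133 CPM in WT to 1079 to 1966 CPM in the null. The transcription factor gene *lola* and the chromatin remodeller gene *kis* fell by 1.20 and 0.97. The call of *eEF2* was lost without null replicate 4 and that of *kis* without null replicate 1, 2 or 3. *CG9752* lies opposite *RpL29*, *Idh3g* opposite *RpL27*, *CG2962* opposite *ATPsyndelta*, and non-coding RNA genes opposite *lola* and *kis*.

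Genes of neural precursors were higher, to a degree that depended on WT replicate 1. Of 23 neuroblast and neural precursor genes 19 rose and none fell, with a median log2 fold change of 1.90, but the groups did not overlap for only 7 of them. *dpn*, a marker of neuroblasts, had 78.7, 55.8, 68.9 and 68.2 CPM in the null and 7.41, 17.2, 38.3 and 32.6 CPM in WT. It was higher in each null library than in any WT library (log2 2.36, SE 0.38, edgeR adjusted p = 0.00105, and 1.23 without WT replicate 1). *ac*, a proneural gene, had 39.1, 15.3, 12.9 and 16.1 CPM in the null and 0, 5.94, 2.66 and 2.37 CPM in WT (log2 6.14, or 2.66 without WT replicate 1). *ase*, which marks dividing precursors, rose by 2.49, or by 0.81 without that library, and *sc* and *ind* lost their calls without it. Without WT replicate 1, 11 of 23 were higher and 1 lower, and with no factor 5 were higher. *ac*, *sc* and *ase* lie within the span of *CG32816*, *ind* within that of *Sytbeta*, and an antisense RNA gene lies opposite *dpn*. Of 11 glial genes 5 rose, *gcm*, the switch to glial fate, having 56.2 to 67.8 CPM in the null and 3.74, 32.4, 48.5 and 34.6 CPM in WT (log2 2.60, or 0.67 without WT replicate 1), and 2 of the 5 held in all 8 fits with 1 library left out.

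Genes of mature neurons and muscle changed call with that library. Of 30 neuron and synapse genes 4 rose with it and 21 without it, and of 32 muscle and mesoderm genes 11 and 19 rose. Without WT replicate 2 or 3 the neuron count was 9, and without null replicate 2, 3 or 4 the muscle count was 7, 6 and 7. *Mhc*, the muscle myosin, had 2401, 1713, 1347 and 1139 CPM in the null and 4975, 236, 100 and 15.8 CPM in WT. Null values lay above 3 of the WT libraries and below WT replicate 1, and *Mhc* was not called (log2 0.60, edgeR adjusted p = 0.406) but had a log2 fold change of 4.16 without it. *Act57B*, a muscle actin, had 1450 to 1913 CPM in the null and 5634, 450, 639 and 482 CPM in WT, and changed sign, from -0.38 to 1.59. *Syt1*, the calcium sensor of synapses, had 30.8 to 51.3 CPM in the null and 75.7, 6.14, 5.21 and 1.16 CPM in WT. Of the 11 that rose, 4 held in all 8 fits with 1 library left out, among them *lmd* and *tin*. *lmd*, which specifies myoblasts that fuse into muscle, had 199, 137, 205 and 206 CPM in the null and 7.76, 50.7, 96.7 and 82.4 CPM in WT. All null libraries were above all WT libraries (log2 3.18, SE 0.36, edgeR adjusted p = 0.000214, and 1.28 without WT replicate 1). *tin*, the heart and visceral mesoderm factor, rose by 3.50, or by 1.88 without it.

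Cuticle genes gave the sharpest example. Of 79 Cpr and Twdl genes tested 11 were lower and 13 higher with all libraries, no lower one being free of overlap, and 0 of 81 were lower and 70 higher without WT replicate 1. *TwdlD* had 31.6, 40.8, 12.0 and 13.3 CPM in the null and 3025, 3.50, 1.61 and 0.558 CPM in WT. The null values lay above 3 WT libraries and below the other one. Its log2 fold change was -2.64 with that library and 3.95 without it. The 23 genes of ecdysone synthesis and response had 3 lower and 3 higher, below the share over all genes tested, or 2 and 6 of 24 without WT replicate 1. Their sum was 1507 to 2052 CPM in the null and 1799 to 3369 CPM in WT, with WT replicate 3 the highest and WT replicate 1 at 2276 CPM. WT replicate 1 was the highest library for *ftz-f1* with 54.8 to 80.7 CPM in the null and 990, 183, 118 and 316 CPM in WT (log2 -2.87, or -1.57 without WT replicate 1) and *Eip74EF* with 23.2 to 28.8 CPM against 153, 18.8, 20 and 7.94, and the lowest for *shd*. *shd*, which makes the active hormone, rose by 4.05, or by 1.37 without it. *serp*, a chitin deacetylase gene of the trachea, fell by 1.80 and lost its call without it (-0.24).

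Segment polarity genes, which hold the borders within each segment, had 13 of 20 higher and 5 lower, but 2 higher and 5 lower without WT replicate 1, and 7 higher without null replicate 1 or 3. All null libraries lay above all WT libraries for 1 of the 20 genes, and below them for 5. *gsb* had 53.7, 31.3, 29.1 and 31.5 CPM in the null and 2.08, 14.0, 16.1 and 12.7 CPM in WT (log2 2.91, or 1.35 without WT replicate 1), and *hh*, the Hedgehog ligand, 39.8 to 57.5 CPM against 4.98, 19.7, 42.6 and 19.1 (2.13, or 0.80). *slp1* rose by 2.17 and was not called without that library. The lower members were firmer. *fu*, the kinase of Hedgehog signalling, had 34.6, 23.0, 42.1 and 31.5 CPM in the null and 106, 145, 102 and 207 CPM in WT (log2 -1.86, SE 0.29, edgeR adjusted p = 0.000872), with *CG6696* opposite, and *cos*, its partner, and *dsh*, of Wingless signalling, fell by 1.79 and 1.69. In the EGF and FGF receptor pathways 9 of 24 rose and 2 fell, the EGF ligand gene *spi* rising by 1.85 and the FGF receptor gene *btl* by 1.82, or by 0.87 and 1.12 without WT replicate 1, and 4 of the 9 held in all 8 fits with 1 library left out, whose counts ran from 5 without null replicate 3 to 15 without WT replicate 3. In the BMP and activin pathways 5 of 16 rose and 2 fell, with 3 higher without null replicate 3 and 8 without WT replicate 3, *tld*, a protease that frees the ligand, and *gbb*, a ligand, rising by 2.69 and 2.01, or by 1.18 and 0.95 without WT replicate 1, and *Mad*, the transducer, falling by 1.30 on the log2 scale. Early zygotic patterning genes had 9 of 16 higher and 2 lower, or 5 higher without null replicate 1, null replicate 2 or WT replicate 1, with *ftz* at 13.3 to 29.5 CPM in the null and 0.383, 5.86, 8.67 and 6.27 CPM in WT (log2 3.89, or 1.56 without WT replicate 1) and with *hkb* up by 2.48, or by 0.87 without WT replicate 1. All 8 amnioserosa genes rose, *Doc3* by 2.26 and *Ance* by 2.11, or by 1.33 and 0.92 without that library, when 3 of the 8 rose, and 4 rose without null replicate 3 and 5 without null replicate 1. For only 1 of the 8 did all null libraries lie above all WT libraries. Of 8 Hox genes 3 rose, a count that ran from 1 to 6 with single libraries left out, with none higher in all 8 such fits and none higher with no factor.

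The dosage compensation genes, which double the output of the male X, had 3 of 7 lower and 3 higher. *msl-1*, the scaffold of the complex, had 117, 100, 140 and 130 CPM in the null and 559, 576, 419 and 1020 CPM in WT, with no overlap (log2 -2.24, SE 0.29, edgeR adjusted p = 0.000354). *lncRNA:roX1*, an RNA made in males, had 1340, 827, 1362 and 1476 CPM in the null and 67.6, 208, 1232 and 942 CPM in WT. It was low in WT replicates 1 and 2 only (log2 2.71, or 0.87 without WT replicate 1). *lncRNA:roX2*, a second male RNA, and *msl-2*, whose protein is made in males, were low in the same pair of libraries, at 6.86 and 7.57 CPM and at 8.97 and 7.65 CPM, and both lost their calls when null replicate 1, 2 or 3 was left out. The part of the mix of male and female embryos in the values of these 3 genes was not tested. Polycomb and Trithorax genes had 9 of 25 lower and 7 higher, and Mediator genes 8 of 28 lower and 9 higher, of which 5 lower and 2 higher in each list held in all 8 fits with 1 library left out.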

How the data were processed

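Total RNA from pools of whole embryos was made into libraries with the Ovation RNA-seq System V2. The authors trimmed reads with Trimmomatic, mapped them with HISAT2 to the dm6 assembly with Ensembl release 99 gene models, and counted reads per gene with htseq-count (HTSeq 0.11.1, default settings), and the deposited table holds these raw counts, 1 column per library, without normalization. Column names stand 1 cell to the right of their values, and each value column was matched to a sample by its name. Whether the default strand setting suits this kit could not be settled, so reads of overlapping genes on opposite strands cannot be told apart. Of 17807 gene identifiers, 17710 were matched to Ensembl release 115, which gave positions and neighbours.

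The 5 summary lines of htseq-count, 2 transgenes and 138 rRNA genes were left out of tests. Counts of the 4 null and 4 WT libraries were filtered with filterByExpr, scaled by TMM and tested with edgeR 4.0.16 (quasi-likelihood, R 4.3.3) with 1 factor of unwanted variation, estimated from deviations of replicates from their group means as RUVSeq does and leaving 5 residual degrees of freedom. P-values were adjusted by Benjamini-Hochberg over the 10862 genes tested, and genes were called at an adjusted p under 0.05 and a log2 change of at least 0.5. CPM (the standard unit of edgeR) are counts scaled by TMM-adjusted library size. A floor of 3 counts corresponds to 0.0895 to 0.144 CPM per library and, like other limits from counts, covers counting error only. The labels give replicates by number and the study calls them biological.

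Members and gene lists were chosen with earlier results of these data known. Named genes were *Ada2b*, called genes with the largest change (at least 10 counts per library and no overlap), smallest adjusted p, highest level or 0 counts in 1 group, up to 3 called genes per list and direction, and called subunits of the Ada2b complexes and ATAC. The plan was to name all subunits of these complexes, but of those not called only *Sgf29* and *Ada2a* are named. *dpn*, *ase*, *Mhc*, *Act57B*, *Syt1*, *Hsp83*, *CCT2*, *kuz*, *Rpt4*, the *Hsp70* copies and proteasome subunits named as not called lie outside the rule and were chosen after their values were seen. Lists are described by counts and medians, with no test. The model was run on simulated data with known changes, in which the unwanted factor was drawn independently of group. In the 8 libraries the factor was not balanced between groups, so the simulation does not cover that setting. Alternatives were DESeq2 1.42.0, other filters, scalings and factors, a replicate block, more libraries in the fit, each library left out, stricter thresholds, and, chosen after seeing the data, centring of the median gene. Promoter sequence was not analysed here.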

Additional observations from a re-analysis of the deposited data

Results flagged for a closer look

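In 31 of 296 groups of 4 values the highest or lowest library stood further from the others than Dixon's 95% critical value for 4 samples allows, where chance gives about 1 in 20. WT replicate 1 was that library in 14 of them. It was highest for *Mhc* (4975 CPM), *Act57B* (5634), *Syt1* (75.7), *TwdlD* (3025), *Eip74EF* (153), *CG11911* (1.69) and *CG11529* (0.607), for the summed muscle markers (11060), the muscle and mesoderm list (33170) and the Cpr and Twdl cuticle genes (18890). It was lowest for *Bacc* (1047 CPM), *Elp3* (13.8), *ase* (4.15) and *Orc5* (1.56).

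Among null libraries, replicate 1 was highest for *snk* (0.284 CPM), *betaTub56D* (1966), *CG10035* (95.5), *BobA* (125), *gsb* (53.7), *ac* (39.1) and the summed muscle markers (4783), and replicate 2 was lowest for *fax* (2566), *MBD-R2* (93.9), *lmd* (137) and *spi* (332) and highest for *Prosbeta7* (74.6). WT replicate 3 was lowest for *Elba2* (89.2 CPM) and *ATPsyndelta* (192), and WT replicate 4 highest for *chif* (1164) and *Atxn7* (175.3). The share of mitochondrial counts was highest in WT replicate 2, at 1.98%.

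Reads on the GFP transgene were not used in any comparison. They numbered 5, 0, 6 and 51 in null replicates 1 to 4 and 17, 0, 4 and 22 in WT replicates 1 to 4, so that null replicate 4 lay above all WT libraries and null replicate 2 and WT replicate 2 had none.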

How the results depend on the processing

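The fall of *Ada2b* was called in all 18 alternatives, with log2 fold changes of -2.39 to -1.65. Against 2049 lower and 1930 higher genes, counts were 495 and 5 with all 20 libraries in the fit (1367 and 183 at an unadjusted p under 0.05), 1418 and 158 with the PA+PB libraries added, 2086 and 978 with no factor, 2682 and 1197 with the median gene centred at 0 (an alternative chosen after seeing the data), and 1325 and 815 at an adjusted p under 0.01. The share of calls that were lower went from 51.5% to 99%, 90%, 68.1%, 69.1% and 61.9%. Leaving out 1 library gave 1427 to 2486 lower and 1020 to 3368 higher genes, the extremes without null replicate 3 and without WT replicate 1. The higher count also moved by over 1.5 times without null replicate 1 (1233), null replicate 2 (1220) and WT replicate 3 (2938). Other filters, DESeq2's size factors, 2 factors, the Wald test and a log2 change of at least 1 kept both counts within 1.5 times. DESeq2's Wald test gave 2329 and 2275.

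Of 69 lower and 56 higher genes named and called, 66 and 29 were called with no factor, 66 and 46 without WT replicate 1, 60 and 4 with PA+PB, and 27 and 1 with all 20 libraries. Direction reversed without WT replicate 1 for *Act57B* (1.59, range over single libraries left out -0.44 to 1.59), *TwdlD* (3.95, -3.13 to 3.95) and *Eip74EF* (0.79, -1.21 to 0.79). It reversed with all 20 libraries for *wda* (-0.56), *Atac2* (-0.74), *ind* (-1.05) and *hkb* (-0.48), and with PA+PB for *Atac2* (-0.36), *Ada2a* (-0.35), *MBD-R2* (-0.091), *gsb* (-0.55), *hh* (-0.19), *ind* (-0.72), *gcm* (-0.41), *hkb* (-0.20), *Syt1* (-0.63) and *msl-2* (-0.35), none of them called there. The cause was not tested.

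Whether replicate numbers pair the samples was not settled. The deviations of same-numbered null and WT libraries correlated at 0.165, -0.0802, 0.0915 and 0.176, and those of differently numbered libraries at -0.216 to 0.138. The values 0.176 and 0.165 were the highest of all pairs. With a replicate block in place of the factor, 1801 genes were lower and 775 higher (69.9% lower), *Ada2b* had a log2 fold change of -1.97, 65 and 20 of the named genes were called, and *Act57B* (0.85), *TwdlD* (2.46) and *Eip74EF* (0.11) reversed.

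Each group holds 4 pools, and WT replicate 1 stood apart in muscle, cuticle and neuroblast genes. The floor of 3 counts lay at 0.0895 to 0.144 CPM, so genes near it could not be compared. The motif description was not run.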
